A study of Mus musculus with 15 samples.

Results

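The NRF2 antioxidant response was followed in mouse neuroendocrine lung carcinoma through 10 genes: the factor gene Nfe2l2, its inhibitor gene Keap1, and the target genes Nqo1, Hmox1, Gclc, Gclm, Txnrd1, Srxn1, Slc7a11 and Gpx2. They were taken by gene name from a matrix of 55359 genes. Of the 10, 9 were measured above a floor of 3 reads, and Gpx2 was listed at 0 in all 15 samples. The tumor lines came from QKO mice, in which Rb1, Rbl1 and Trp53 are among the inactivated genes (Rbl1 in every cell, floxed Rb1 and Trp53 after Cre). 46LCNEC is an adherent line from a lung tumor that followed intratracheal Ad-CMVcre, a virus with Cre under a general promoter. 57SCLC is a line of floating aggregates from a tumor that followed Ad-K5cre, with Cre under a keratin 5 promoter. Each is a single line, and its 3 culture samples are dishes (46LCNEC_cell) or flasks (57SCLC_cell) of it. The paper gives a different cell passage for each line, and number strings in the culture labels differ between the lines too. Passage and whatever these strings stand for therefore cannot be told apart from the line. The allografts (46LCNEC_allo and 57SCLC_allo, 3 tumors each) grew under the skin of immunocompetent syngeneic QKO mice, and Lung is normal lung of 3 littermates (CT3, CT4 and CT5) whose genotype and age are not given in the sources used here. The labels give no treatment for any group. All p-values measure the spread between such samples, which for the cultures may be technical.

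NRF2, the protein of Nfe2l2, is a transcription factor that in resting cells is held by KEAP1, an adaptor of a cullin-3 ubiquitin ligase, and degraded. Oxidants and electrophiles modify cysteines of KEAP1, NRF2 then escapes degradation, pairs with a small MAF protein and binds antioxidant response elements near its targets. The targets supply glutathione and thioredoxin, detoxify quinones and break down heme. In human lung cancer the pathway is known for mutations of KEAP1 and NFE2L2 that leave NRF2 permanently active. As NRF2 is controlled mostly by degradation, its mRNA is not a measure of its activity, and no protein was measured in these files.

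Start sites were searched for the core of the antioxidant response element, TGACNNNGC or its reverse complement GCNNNGTCA, in windows of 250 bases before to 50 bases after each RefSeq start (table of GRCm38.p6, each member's window then found by exact match in GRCm39). The table holds 8 of the 10 members in 10 windows, and Hmox1 and Gclc are not in it. The core was in 4 of the 10 windows, against 12.4% of all 32851 windows. Per gene it was in 4 of 8 members, against 14% of 27025 genes. The 4 matches follow with 10 bases on each side, 5′ to 3′ on the strand of the gene, with the core in capitals. The match in Nfe2l2 reads TGACTCCGC and starts 240 bases before the start site (chr2:75535229-75535257, minus strand of GRCm39). That of Gclm is on the strand opposite to the gene, 134 bases before the start (chr3:122039062-122039090, gene on the plus strand). That of Txnrd1 is 92 bases before 1 of its 3 starts (chr10:82694938-82694966, gene on the plus strand), and that of Srxn1 begins at base 29 of the transcript (chr2:151947462-151947490, gene on the plus strand). Those of Txnrd1 and Srxn1 are, like that of Gclm, in the reverse complement form.
Nfe2l2: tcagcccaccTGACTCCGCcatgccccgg
Gclm: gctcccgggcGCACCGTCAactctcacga
Txnrd1: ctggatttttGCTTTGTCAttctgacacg
Srxn1: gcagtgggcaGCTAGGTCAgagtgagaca
Nqo1 is shown because 1 tumor stood far above all other samples for it, and its 250 bases before the start (chr8:108129838-108130087, minus strand) hold neither form of the core, which says only that these letters are not in this stretch.
Nqo1: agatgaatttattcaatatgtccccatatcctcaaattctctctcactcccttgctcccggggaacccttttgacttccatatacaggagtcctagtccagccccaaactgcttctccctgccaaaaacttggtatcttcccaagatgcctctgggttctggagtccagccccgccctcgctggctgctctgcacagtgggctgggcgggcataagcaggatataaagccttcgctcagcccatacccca

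The values are normalized counts, that is reads per gene divided by the size factor of the sample. Reads per sample ranged from 9480244 (tumor 275 of 57SCLC_allo) to 44876572 (flask C of 57SCLC_cell), with a median of 26502525, so that 3 reads correspond to between 1.56 and 7.18 normalized counts. Among replicates, the chi-square per degree of freedom ran from 2.80 (flasks A and B) to 144 (flasks A and C), and flask C stood apart from the other two flasks. The 46LCNEC tumors all differed from each other (92.6 to 133), and tumor 312 is followed here for its Nqo1 value. Calls of members that change without flask C or tumor 312 are given with both values. Calls of the wider pathway genes and of the markers were read in the main fits only, with all samples of the groups compared. The check genes Rb1, Rbl1 and Trp53 are counted over all exons and do not show recombination. Rb1 had 66.6 to 99.9 normalized counts in 46LCNEC_cell against 247 to 329 in Lung, and 777 in flask C against 229 to 236 in the other two flasks. Summed neuroendocrine markers (6 genes) reached 34927 to 67616 in 57SCLC samples but only 22.1 to 68.6 in 46LCNEC samples, where Lung had 182 to 196. These 6 mRNAs alone thus do not bear out the neuroendocrine label in 46LCNEC. The paper reports protein staining for that label, among others for NCAM in LCNEC cells and chromogranin A in LCNEC allografts. Ncam1 was not among the 6 genes, and no protein was measured here. Groups were compared with limma, and a gene was called higher or lower where its p, adjusted by Benjamini-Hochberg over all genes tested, was 0.01 or less and its fold change 2 or more. The 4 comparisons with Lung share its 3 samples.

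Nfe2l2 was highest in Lung and lowest in the 57SCLC samples. The gene (ENSMUSG00000015839, chromosome 2, 75504739 to 75534985, minus strand) had 5726, 6409 and 6285 normalized counts in Lung, and 2153, 2258 and 2066 in the dishes of 46LCNEC_cell. It had 3302, 4516 and 3924 in the 46LCNEC tumors, 1449.9, 1539.7 and 1399 in the flasks of 57SCLC_cell, and 1771, 1457 and 1813 in the 57SCLC tumors. Only the 57SCLC cells and tumors overlapped, and in every other step of the order the groups were apart. Compared with Lung it was lower in 46LCNEC_cell (log2 fold change -1.51, SE 0.07, adjusted p = 8.03e-08), in 57SCLC_cell (-2.07, SE 0.08, adjusted p = 1.43e-07) and in 57SCLC_allo (-1.87, SE 0.10, adjusted p = 1.53e-06). In 46LCNEC_allo the difference from Lung was -0.66 on the log2 scale (adjusted p = 0.00514), under the fold threshold. Between the tumors of both lines it was lower in 57SCLC_allo (-1.21, SE 0.15, adjusted p = 0.000596). With library size in place of the size factors this last difference was -0.95 and missed the threshold.

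Keap1 (ENSMUSG00000003308, chromosome 9, 21141026 to 21150679, minus strand) encodes the adaptor that holds NRF2 and was called in none of the 8 pairwise comparisons. Its group means were 2415 ± 569 normalized counts in 57SCLC_cell, 2072 ± 568 in 46LCNEC_allo, 1633 ± 172 in 46LCNEC_cell, 1611 ± 228 in Lung and 1551 ± 45.6 in 57SCLC_allo (SD, n = 3 each). All neighboring groups in this order overlapped. The lowest and highest values were 1467 in Lung CT5 and 2809 in flask A, while flask C had 1762 against 2674 in flask B. Of the exon bases of Keap1, 25.8% also lie in other genes, and the strand setting of the counting is not given in the sources used here, so its counts are uncertain to that extent.

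**Figure D1:**
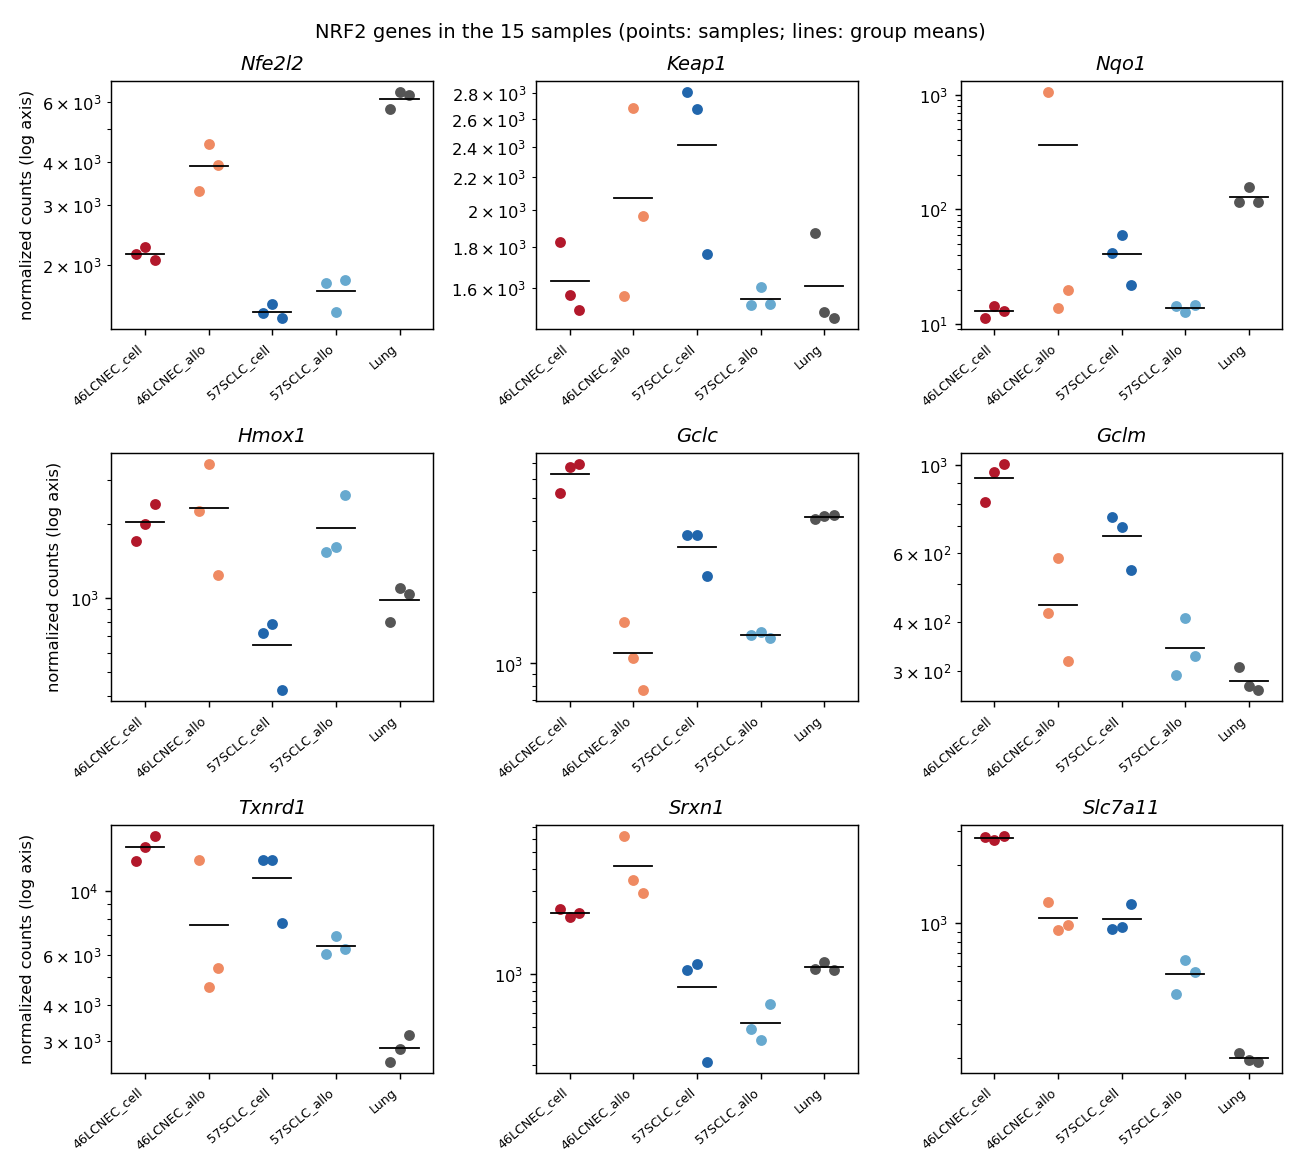
Normalized counts (log axis) of the 9 measured NRF2 genes in the 15 samples, 1 panel per gene; each point is a sample and each line the mean of its group of 3. Nqo1 stands at 1050.3 in 1 tumor of 46LCNEC_allo (tumor 312) and at 13.7 and 19.9 in the other tumors of that group, while Slc7a11 is lowest in all Lung samples.

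Slc7a11, the cystine importer of the glutathione pathway, was higher than Lung in the cells and tumors of both lines. The gene (ENSMUSG00000027737, chromosome 3, 49846975 to 50398070, minus strand) had 212, 196 and 191 normalized counts in Lung. In the dishes of 46LCNEC_cell it had 2788, 2689 and 2839, and in the tumors 312, 319 and 321 it had 1293, 922 and 976. The flasks of 57SCLC_cell held 937, 952 and 1262, and the 57SCLC tumors 429, 644 and 557. Every tumor and culture sample was above every Lung sample, and only 46LCNEC_allo and 57SCLC_cell overlapped. Against Lung the gene was higher in 46LCNEC_cell (13.8-fold, log2 3.79, SE 0.08, adjusted p = 9.63e-10), in 57SCLC_cell (5.20-fold, adjusted p = 1.6e-06), in 46LCNEC_allo (5.25-fold, adjusted p = 5.21e-05) and in 57SCLC_allo (2.68-fold, adjusted p = 0.000123). It was lower in the tumors of 46LCNEC than in their cells (-1.40, SE 0.14, adjusted p = 0.000247) and lower in 57SCLC_cell than in 46LCNEC_cell (-1.41, SE 0.12, adjusted p = 1.33e-05). In 57SCLC the step from cells to tumors was -0.96 (SE 0.18, adjusted p = 0.00324), just under the fold threshold, and it passed without flask A (-1.03), flask B (-1.02) or tumor 316 (-1.09). Likewise the difference between the tumors of both lines was -0.97 (adjusted p = 0.00614) and passed without tumor 319 (-1.07) or tumor 316 (-1.10).

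Gclc encodes the catalytic subunit of glutamate-cysteine ligase, the rate-limiting enzyme of glutathione synthesis, and was lower in the allografts than in the cells of both lines. The gene (ENSMUSG00000032350, chromosome 9, 77661797 to 77701770, plus strand) had 5247, 6740.1 and 6926 normalized counts in 46LCNEC_cell and 1493, 1059 and 773 in the 46LCNEC tumors. It had 3474, 3493 and 2336 in 57SCLC_cell, 1324, 1363 and 1281 in the 57SCLC tumors, and 4074, 4169 and 4228 in Lung. All 6 tumors were below all 9 other samples. From cells to tumors it fell by 2.55 on the log2 scale in 46LCNEC (SE 0.24, adjusted p = 0.000182) and by 1.2 in 57SCLC (SE 0.15, adjusted p = 0.000406). Relative to Lung it was lower in 46LCNEC_allo (-1.96, SE 0.23, adjusted p = 0.000448) and in 57SCLC_allo (-1.65, SE 0.06, adjusted p = 3.06e-07). In culture 57SCLC had less than 46LCNEC (-1.04, SE 0.18, adjusted p = 0.000891), a difference that went under the fold threshold with library size scaling (-0.80) and without dish B (-0.98), dish C (-0.96) or flask C (-0.84).

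Gclm encodes the modifier subunit of the same ligase, and it followed the order of the catalytic subunit only in part. The gene (ENSMUSG00000028124, chromosome 3, 122039126 to 122065061, plus strand) had 808, 965 and 1007 normalized counts in 46LCNEC_cell and 423, 583 and 320 in its tumors, where the 2 groups did not overlap. It had 739.7, 699 and 542 in 57SCLC_cell, 294, 411 and 329 in its tumors, and 308, 276 and 269 in Lung. It was thus lowest in Lung, where Gclc was second highest. It was higher than Lung in 46LCNEC_cell (log2 1.70, SE 0.12, adjusted p = 7.86e-07) and in 57SCLC_cell (1.2, SE 0.14, adjusted p = 0.000103), and lower in the 46LCNEC tumors than in the cells (-1.10, SE 0.22, adjusted p = 0.00537). That last call was lost, with values between -0.89 and -1.2, without any one of dishes A, B and C or without tumors 312 or 321. Per kilobase of exon, the scale on which genes can be set side by side, the level of Gclc was 1006 and that of Gclm 117 in 46LCNEC_cell. The corresponding levels were 663 and 35.8 in Lung and 495 and 83.0 in 57SCLC_cell. In the tumors they were 177 and 55.5 for 46LCNEC and 211 and 43.3 for 57SCLC. Of the exon bases of Gclm, 12.6% lie in other genes as well.

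Txnrd1, the cytosolic thioredoxin reductase that keeps thioredoxin reduced with NADPH, was the most abundant member per kilobase of exon in all cultures, with 1995 in 46LCNEC_cell and 1564 in 57SCLC_cell against 401 in Lung. The gene (ENSMUSG00000020250, chromosome 10, 82669785 to 82733546, plus strand) had 12696, 14231 and 15488 normalized counts in 46LCNEC_cell, 12790.2, 12743 and 7711 in 57SCLC_cell, and 2547, 2823 and 3155 in Lung. The 57SCLC tumors had 6035, 6937 and 6258, and the tumors 312, 319 and 321 of 46LCNEC had 12811, 4622 and 5409.6. Every Lung sample was below every other sample, and tumor 312 lay within the range of the cultures. Compared with Lung the gene was higher in 46LCNEC_cell (4.98-fold, adjusted p = 4.75e-08), in 57SCLC_cell (3.81-fold, adjusted p = 5.08e-05) and in 57SCLC_allo (2.26-fold, adjusted p = 1.68e-05). In 46LCNEC_allo the fold was 2.42 with an adjusted p of 0.0229, while it passed with DESeq2 (log2 1.48, adjusted p = 0.000425) and with all 15 samples in 1 model (log2 1.27, adjusted p = 0.00159). From cells to tumors the log2 change in 46LCNEC was -1.04 (SE 0.36, adjusted p = 0.042), and without tumor 312 it was -1.49 and passed (adjusted p = 0.000479).

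Srxn1, sulfiredoxin, which reactivates overoxidized peroxiredoxins, was the member that separated the tumors of both lines most. The gene (ENSMUSG00000032802, chromosome 2, 151947436 to 151957687, plus strand) had 6217, 3471 and 2924 normalized counts in tumors 312, 319 and 321 of 46LCNEC and 486, 419 and 679 in the 57SCLC tumors. It had 2367, 2138 and 2246 in the dishes of 46LCNEC_cell, 1064, 1145 and 315 in flasks A, B and C of 57SCLC_cell, and 1074, 1173 and 1051 in Lung. The lowest 46LCNEC tumor was above every sample of the other 4 groups. Between the tumors the gene was lower in 57SCLC_allo by 7.69-fold (log2 -2.94, SE 0.31, adjusted p = 0.000306). Compared with Lung it was higher in 46LCNEC_allo (3.62-fold, adjusted p = 0.00123) and in 46LCNEC_cell (2.05-fold, adjusted p = 1.45e-06), and lower in 57SCLC_allo (-1.09, SE 0.17, adjusted p = 0.000643). The call in 46LCNEC_cell rests near the fold threshold and was lost without dish A (1.00), and that in 57SCLC_allo was lost with edgeR (-0.97), with library size scaling (-0.88) and without tumor 316 (-0.93), and its adjusted p was 0.0239 with all 15 samples in 1 model. Between the cultures the difference was -1.63 (SE 0.44) with an adjusted p of 0.0101. Without flask C it was -1.03 and passed (adjusted p = 1.39e-05), and it also passed without flask A (-1.90) or flask B (-1.96).

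Nqo1, a quinone reductase often read as a marker of NRF2 activity, was at 156 normalized counts or less in all samples but 1. The gene (ENSMUSG00000003849, chromosome 8, 108113835 to 108129934, minus strand) had 11.26, 14.35 and 13.07 normalized counts in 46LCNEC_cell and 14.4, 12.7 and 14.8 in the 57SCLC tumors. It had 42.0, 59.7 and 21.9 in flasks A, B and C of 57SCLC_cell and 116, 156 and 116 in Lung. In tumors 319 and 321 of 46LCNEC it had 13.7 and 19.9, and in tumor 312 it had 1050.3, which is 60.0 times the mean of the other two tumors on the log2(normalized count + 1) scale. Relative to Lung it was lower in 46LCNEC_cell (9.31-fold, log2 -3.22, SE 0.24, adjusted p = 1.34e-06), in 57SCLC_allo (8.63-fold, log2 -3.11, SE 0.25, adjusted p = 1.41e-05) and in 57SCLC_cell (3.30-fold, log2 -1.72, SE 0.36, adjusted p = 0.00279). The last call was lost without any one of the Lung samples (adjusted p between 0.0109 and 0.017). For 46LCNEC_allo the difference from Lung was -0.91 with an SE of 1.56 (adjusted p = 0.633). Without tumor 312 it was -2.88 and was called lower (adjusted p = 0.00102). With edgeR and DESeq2, which work on the scale of the counts, the sign turned and the value was 1.55 in both. It was not called with edgeR (adjusted p = 0.394), and DESeq2 gave no adjusted p for it. In culture 57SCLC had more Nqo1 than 46LCNEC (2.83-fold, log2 1.5, SE 0.36, adjusted p = 0.00545), but this call was lost without any one of dishes A, B and C, flask A or flask B, with adjusted p between 0.0148 and 0.0253. Without flask A or flask B the value was 1.43 and 1.18.

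Hmox1 encodes heme oxygenase 1, which breaks down heme and is also made in quantity by macrophages. The gene (ENSMUSG00000005413, chromosome 8, 75820241 to 75827217, plus strand) had 723, 782 and 424 normalized counts in 57SCLC_cell and 1534, 1604 and 2628 in the 57SCLC tumors. It had 1704, 1991 and 2413 in 46LCNEC_cell, 2246, 3490.2 and 1246 in tumors 312, 319 and 321, and 802, 1097 and 1042 in Lung. The 57SCLC cells were below every other sample, and the 46LCNEC cells lay inside the range of their tumors. Hmox1 rose from cells to tumors in 57SCLC (log2 1.58, SE 0.27, adjusted p = 0.00229), a call lost without tumor 317 (1.34, adjusted p = 0.0103). In 46LCNEC the same step was 0.09 (SE 0.35, adjusted p = 0.854). In culture it was lower in 57SCLC than in 46LCNEC (-1.70, SE 0.24, adjusted p = 0.000265). Compared with Lung it was higher in 46LCNEC_cell (2.07-fold, adjusted p = 0.000146), which was lost without dish C (0.92) or Lung CT3 (0.91). The tumors of 57SCLC and 46LCNEC differed from Lung by 0.94 (adjusted p = 0.00504) and 1.14 (adjusted p = 0.0316), both short of a call, although the former passed with edgeR (1.06), DESeq2 (1.03), library size scaling (1.14) and TMM (1.02) and without tumor 275 (1.08) or tumor 316 (1.05). The latter passed with DESeq2 (1.31), with all 15 samples in 1 model (adjusted p = 0.00762) and without tumor 321 (1.53).

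Of the 8 macrophage markers, 7 were tested from cells to tumors, and 7 were called higher in 57SCLC and 7 in 46LCNEC. Their summed level was 311 to 343 normalized counts in 57SCLC_cell and 18312 to 32786 in 57SCLC_allo. It was 332 to 387 in 46LCNEC_cell and 42079 to 93055 in 46LCNEC_allo, while Lung had 89368 to 119230. Most of the sum in Lung was Lyz2 alone, with 79790 to 108582. Gene by gene, 3 of the 8 were called higher and 2 lower in 46LCNEC_allo than in Lung (13.4% and 22.1% of all genes). In 57SCLC_allo 2 were higher and 2 lower (18.9% and 26.9%). In 57SCLC_cell, Adgre1, Marco and C1qb were at or under 3 reads, and in 46LCNEC_cell the same held for Adgre1, Mrc1, Marco, C1qa, C1qb and Lyz2. Fibroblast markers were also called higher from cells to tumors, 5 of 5 in each line (14.4% of all genes in each). Of the blood and endothelial markers tested, 4 of 5 were higher in 46LCNEC and 3 of 4 in 57SCLC. The part of macrophages in the Hmox1 values of the tumors was not tested. Nor was the part of any host cells in the steps of the other members from cells to tumors, or in how these steps differed between the lines. Lung epithelial markers (7 genes) summed to 342002 to 456431 in Lung and to between 128 and 559 elsewhere, and all 7 were called lower in each comparison with Lung. The part of this difference in cell types in the comparisons of NRF2 genes with Lung was not tested either. In such bulk samples fewer cells of a type and less RNA per cell cannot be told apart.

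Gpx2, a glutathione peroxidase of epithelia, was listed at 0 in all 15 samples. The gene (ENSMUSG00000042808, chromosome 12, 76839107 to 76842326, minus strand) shares no exon bases with other genes. Txnip and G6pdx, which most cells use, were also listed at 0 throughout, as were 3677 of 21627 protein-coding genes, so nothing is read from this 0.

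The calls were counted over the 9 tested members and set beside those of all genes. In 46LCNEC_cell against Lung, 7 members were called where 55.6% of all genes tested were. Of these, 5 were higher and 2 lower, against 20.6% and 35.0% of all genes. In 57SCLC_cell it was 5 of 9 against 53.8%, with 3 higher and 2 lower (21.1% and 32.7% of all genes). For the allografts, 3 members differed from Lung in 46LCNEC_allo against 35.6% of all genes, 2 of them higher and 1 lower (13.4% and 22.1%). In 57SCLC_allo 6 of 9 differed against 45.8%, 2 higher and 4 lower (18.9% and 26.9%). Slc7a11 was called higher in each of these comparisons, and Txnrd1 in 3 of them. Between the lines in culture, 4 members were called against 46.1% of all genes, with 1 higher and 3 lower in 57SCLC (23.9% and 22.2%). Between the tumors 2 were called against 30.4%, none higher and 2 lower in 57SCLC (16.1% and 14.2%). From cells to tumors, 3 members were called in 46LCNEC against 22.8%, none higher and 3 lower (14.4% and 8.45%). In 57SCLC 2 were called against 16.6%, with 1 higher and 1 lower (14.4% and 2.29%). Gclc was the member called lower in both. With 9 members, 1 call moves a share by 11.1 points, so these shares are set beside those of all genes without a test.

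**Figure D2:**
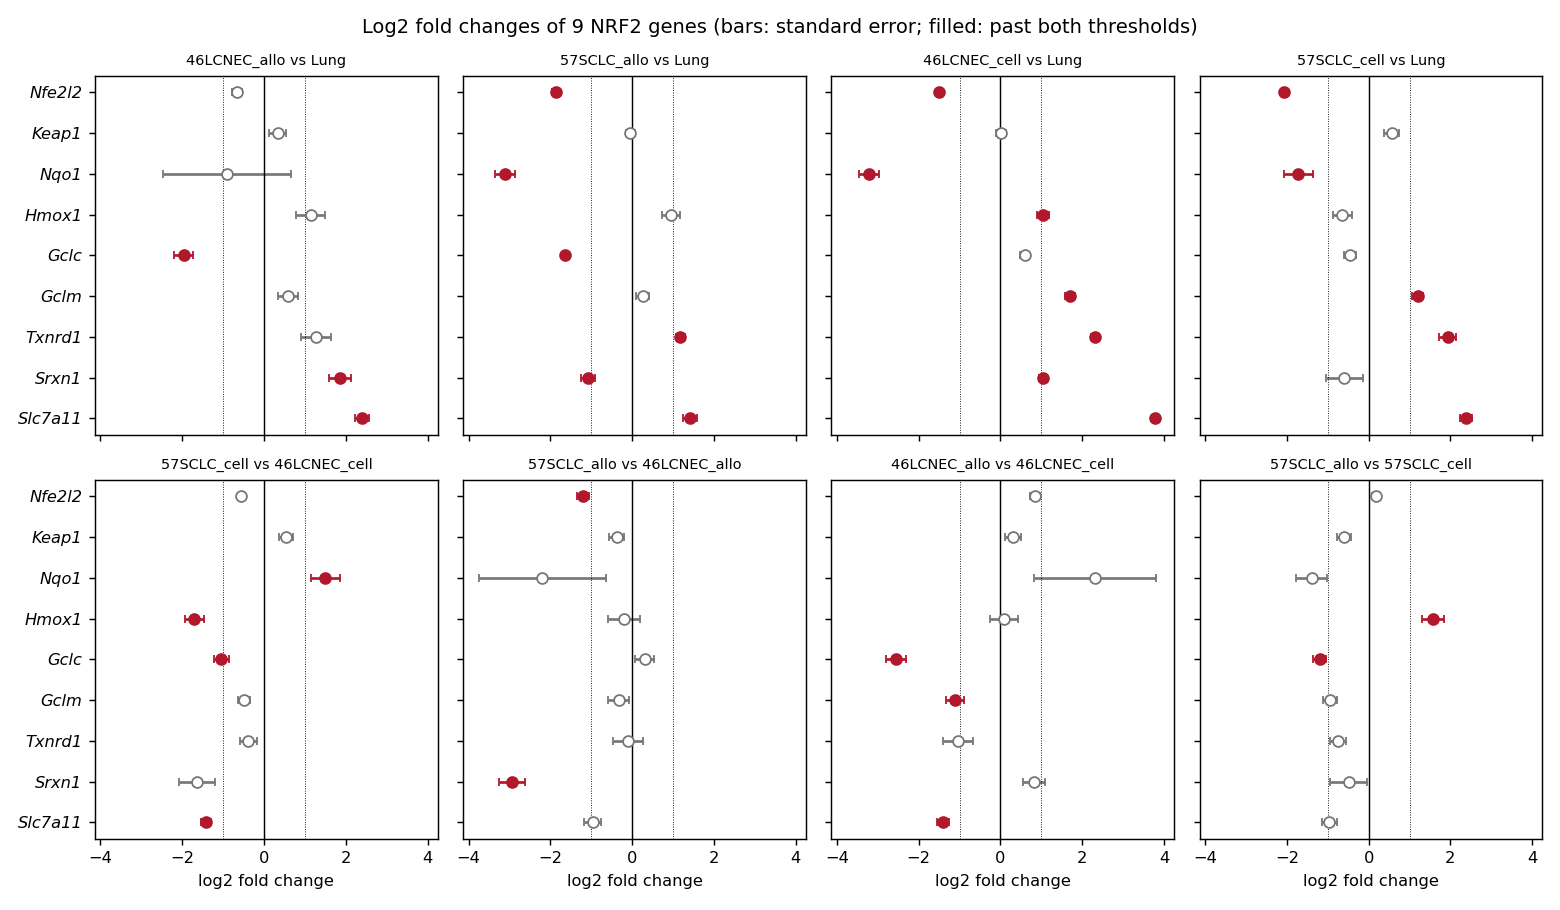
Log2 fold changes (bars are standard errors, limma, 3 samples a group) of the 9 NRF2 genes in the 8 pairwise comparisons, with filled points where the adjusted p was at most 0.01 and the fold change at least 2, and dotted lines at that fold. Slc7a11 lies between 1.42 and 3.79 in all comparisons with Lung, and the wide bars of Nqo1 come in the 3 comparisons that hold the 46LCNEC tumors.

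The difference between the lines was itself compared between tumors and cultures with an interaction term over 12 samples. It was called for Gclc alone (1.34, SE 0.31, adjusted p = 0.00547), where 17.5% of all genes were called (10.8% higher and 6.78% lower). The line difference of Gclc was -1.04 in cultures and 0.31 in tumors (adjusted p = 0.293), and equivalently the fall from cells to tumors was larger in 46LCNEC. The call was lost without flask C (1.15, adjusted p = 0.0117), without dishes B or C, and without any one of the 57SCLC tumors, with adjusted p up to 0.0175 and values from 1.15 to 1.37. For Hmox1 the term was 1.5 (SE 0.50, adjusted p = 0.0327), and for Nfe2l2 it was -0.65 (adjusted p = 0.0104). For Keap1 it was -0.92 (adjusted p = 0.0236), and it was called without flask C (-1.13, adjusted p = 0.00468) or without tumor 312 (-1.11, adjusted p = 0.00717). For Srxn1 it was -1.31 (adjusted p = 0.107), and it was called without flask C (-1.92, adjusted p = 0.00274).

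Tumor 312 and flask C were each set against the other samples of their group, as a description with no test. In tumor 312, 5 of the 9 members were higher than in both other tumors (Nqo1, Gclc, Txnrd1, Srxn1 and Slc7a11), while Nfe2l2 and Keap1 were the lowest of the 3. Among 13534 genes with a mean of at least 50 normalized counts in the group, 32.1% were highest in tumor 312. The counts of further genes below include some under that mean (Gss, Ggt1 and Gsta3). Nqo1 differed by 5.91 on the log2 scale, and it reaches that mean only through tumor 312 itself. Txnrd1 differed by 1.36, Srxn1 by 0.96, Gclc by 0.72 and Slc7a11 by 0.45. Of 40 further genes of the pathway, described next, 26 (65.0%) were highest in tumor 312, with 5 of 5 of the thioredoxin system, 5 of 5 of heme and iron handling, 5 of 6 of detoxication, 7 of 11 of glutathione, 3 of 8 regulators and 1 of 5 of NADPH supply. Among them, Ggt1, which splits extracellular glutathione, had 86.1 normalized counts in tumor 312 against 10.5 and 18.8, and Gsr, glutathione reductase, had 4287 against 1986 and 2358. The fat cell genes Adipoq, Cidec, Plin1 and Lep, chosen after their values were seen, had 103, 117, 88.7 and 29.1 in tumor 312 and at most 1.11 in the other two. Their sum was 338 in tumor 312 and 355 to 1504 in Lung, where Nqo1 was 116 to 156. Their part in the values of tumor 312 was not tested.

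In flask C, 8 of the 9 members were the lowest of the 3 flasks, and Slc7a11 was the highest, with 1262 against 937 and 952. Among 12979 genes with a mean of at least 50 normalized counts in these cells, 49.6% were lowest in flask C. The counts of members and further genes include some under that mean (Nqo1, Gss, Ggt1, Gsta3, Gsta4 and Blvrb). Srxn1 differed by -1.81 on the log2 scale, Nqo1 by -1.16, Hmox1 by -0.82, Txnrd1 by -0.73 and Nfe2l2 by -0.09. Of the 40 further genes 22 (55.0%) were lowest and 16 highest. In the glutathione list 4 were lowest and 5 highest, and of NADPH supply 1 was lowest and 4 highest. The glutathione transferases Gstm1 (273 against 1472 and 1522) and Gstp1 (183 against 491 and 485) were low in flask C, while Mgst1 was high (128 against 64.9 and 71.8). Without flask C, the step from 57SCLC cells to tumors called 5 members in place of 2, with Nqo1 (-1.78), Gclm (-1.07) and Srxn1 (-1.09) lower in addition. With it, these values were -1.39 (adjusted p = 0.0201), -0.94 (adjusted p = 0.00278) and -0.49 (adjusted p = 0.428). The flasks came from the same line. Their labels differ in the letter and in later numbers, whose meaning is not given in the sources used here. No other record of what differed between the flasks was used.

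**Figure D3:**
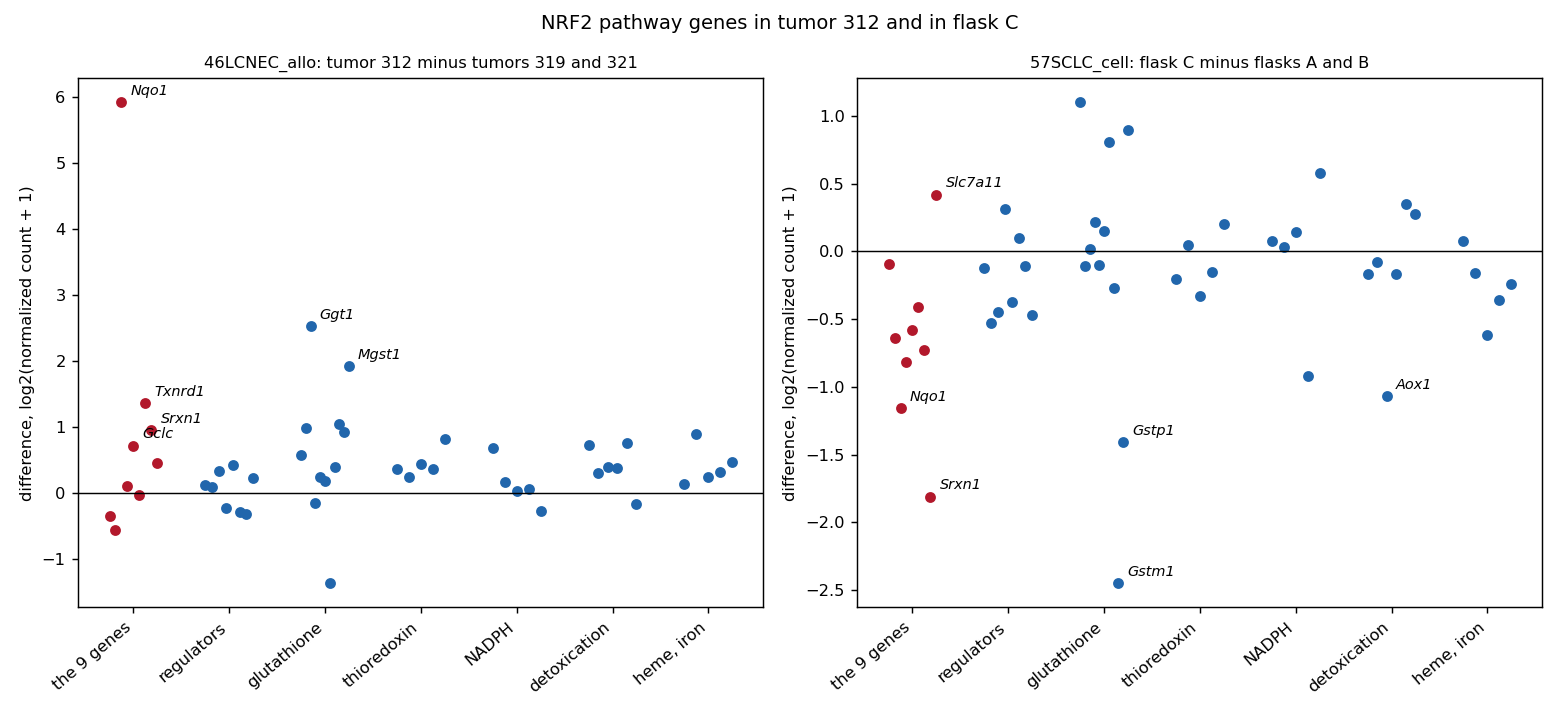
Difference of tumor 312 from the mean of tumors 319 and 321 (left) and of flask C from the mean of flasks A and B (right), on the log2(normalized count + 1) scale, for the 9 NRF2 genes (red) and the genes of the 6 further lists of the pathway (blue). Nqo1 stands 5.91 above the other tumors, and Srxn1 (-1.81) and Gstm1 (-2.45) lie lowest in flask C.

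The wider pathway was read through 42 genes in 6 lists: regulators (8), glutathione use and supply (11), the thioredoxin system (6), NADPH supply (6), detoxication and export (6) and heme and iron (5). They differed between the lines mostly in one direction. In culture, none of the 39 tested was higher in 57SCLC and 23 were lower, with a median log2 difference of -1.46 against 0.00 over all genes, where 22.2% of all genes were lower. In tumors, none of 39 was higher and 15 were lower, with a median of -0.73 against 0.01 and 14.2% of all genes lower. With library size in place of the size factors the median of all genes in these 2 comparisons moved to 0.23 and 0.28. Fibroblast markers moved with this difference. Of 5 such genes, 3 were tested in culture and 3 were lower in 57SCLC, and 5 of 5 were lower in its tumors. Their sum was 67855 to 78009 in 46LCNEC_cell and 22.4 to 27.8 in 57SCLC_cell, 297715 to 666389 in the 46LCNEC tumors and 30593 to 48038 in the 57SCLC tumors. In 57SCLC_cell, Dcn and Lum were at or under 3 reads. In 46LCNEC_cell the collagen genes Col1a1 (19769 to 22399) and Col1a2 (46908 to 54461) made up most of the sum. There Dcn had 8.44 to 13.8, against 2104.8 to 3167.5 in Lung. Pdgfra had 1135.5 to 1270.4 there against 7902 to 8440 in Lung, and Lum was at or under 3 reads. The part of the fibroblast marker difference between the lines in the values of the pathway genes was not tested. Of the detoxication genes, 5 of 6 were lower in 57SCLC in cells and in tumors. Aox1, an aldehyde oxidase, had 2191 ± 253 normalized counts in 46LCNEC_cell and 130.1 ± 48.8 in 57SCLC_cell, and 889 ± 204 against 65.7 ± 9.70 in the tumors (log2 -4.14 and -3.72). Abcc1, an exporter of glutathione conjugates, was lower in 57SCLC by 2.72 on the log2 scale in cells and by 1.14 in tumors. Pgd, an NADPH-making enzyme of the pentose phosphate pathway, fell from 8735 ± 834 in 46LCNEC_cell to 1089.9 ± 35.1 in 57SCLC_cell (log2 -3.0, adjusted p = 3.23e-08). Blvrb, a biliverdin reductase, had 390.2 ± 59.1 and 44.5 ± 2.88 in the same groups (log2 -3.10). Among the regulators, Nfe2l1, a relative of NRF2, and Sqstm1, an autophagy adaptor that binds KEAP1, were lower in 57SCLC both in cells (-1.48 and -1.59) and in tumors (-1.39 and -1.26).

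Against Lung, 3 of 40 genes of these lists were higher and 9 lower in 46LCNEC_allo, 6 and 9 in 46LCNEC_cell, none and 18 in 57SCLC_allo, and none and 21 in 57SCLC_cell. Over all genes the shares higher and lower were 13.4% and 22.1%, 20.6% and 35.0%, 18.9% and 26.9%, and 21.1% and 32.7% in the same order. The medians were -0.12, 0.16, -0.78 and -1.10, beside -0.14, -0.23, -0.09 and -0.12 over all genes. Genes that were higher in 46LCNEC samples included Akr1b8, an aldo-keto reductase (6.03-fold in cells and 4.97-fold in tumors), Abcc1 (2.36 and 1.31 on the log2 scale) and Ugdh, which makes UDP-glucuronate (2.05 and 2.11). The share of all genes called lower in all 4 comparisons, which share the Lung samples, was not computed. Of these lists, 7 genes were lower in all 4. They were Prdx6, a peroxiredoxin abundant in lung, with 26578 ± 2984 in Lung and group means of 1131 to 4162 elsewhere, the transferases Gsta3, Gsta4, Gstm1 and Mgst1, the epoxide hydrolase Ephx1 and Mafk, a small MAF partner of NRF2. Mafk differed from Lung by -1.84 in 46LCNEC_allo, -1.75 in 57SCLC_allo, -1.25 in 46LCNEC_cell and -2.15 in 57SCLC_cell on the log2 scale. Gsta4 was at or under 3 reads in each 57SCLC tumor. From cells to tumors, 1 was higher and 3 were lower of 39 in 46LCNEC, against 14.4% and 8.45% of all genes. In 57SCLC 3 were higher and none lower of 38, against 14.4% and 2.29%. Maff (1.34), Gpx1 (1.04) and Blvrb (2.26) were the genes that rose in 57SCLC, where 85.3% of the exon bases of Gpx1 also lie in other genes and its counts are uncertain. Paralogs such as the glutathione transferases may share reads, and how the counting treated them is not given in the sources used here.

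Over the 15 samples Gclm, Txnrd1 and Slc7a11 varied together, with Pearson's r of 0.83 (Gclm and Txnrd1), 0.86 (Gclm and Slc7a11) and 0.88 (Txnrd1 and Slc7a11) on log2(normalized count + 1). Nfe2l2 went the other way with a correlation of -0.72 to Txnrd1, -0.55 to Slc7a11 and -0.52 to Gclm. Gclc, the partner subunit of Gclm, correlated with it at 0.49, and Nqo1 with none of the other targets above 0.32. Those coefficients describe 15 points that fall into 5 groups and share the scaling of each library, and they are given without a test. Among 19626 genes, those most like each member were Hspa12b (0.994) and 4931406C07Rik (0.993) for Nfe2l2, Gm13410 (0.912) and Bud13 (0.847) for Keap1, and Hcar1 (0.879) and Tmem123 (0.844) for Nqo1. They were Idh3g (0.947) and Gm49144 (0.904) for Hmox1, Trnt1 (0.930) and Zfp503 (0.924) for Gclc, and Zfp101 (0.965) and Proser1 (0.962) for Gclm. For the other three they were Gm3375 (0.967) and Pcbp1 (0.962) with Txnrd1, Gm18541 (0.960) and Mospd3 (0.952) with Srxn1, and Tomm70a (0.982) with Slc7a11.

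**Figure D4:**
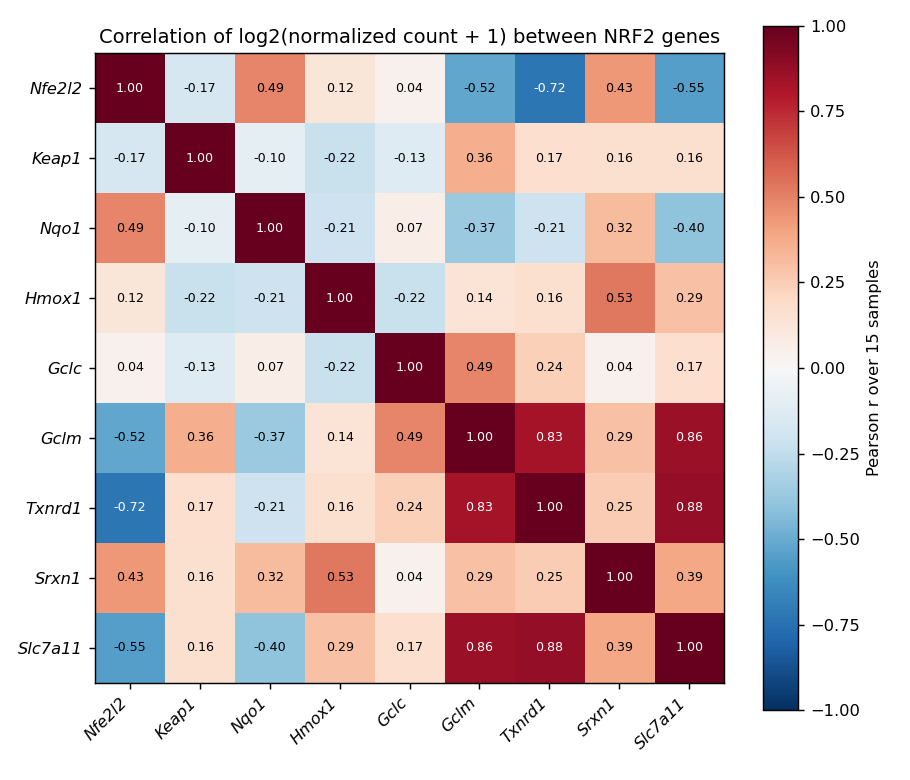
Pearson's r between the 9 NRF2 genes over the 15 samples on log2(normalized count + 1), from blue (-1) to red (1). Gclm, Txnrd1 and Slc7a11 form a block between 0.83 and 0.88, and Nfe2l2 and Txnrd1 are at -0.72.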

How the data were processed

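RNA of 15 samples was sequenced after poly-A selection. Paired reads were mapped by the authors with Rbowtie2 (GRCm39) and summarized by gene with featureCounts and a GENCODE annotation. Size factors of DESeq2 were divided out before the matrix was deposited, so that the deposited signal values are normalized counts. Within each sample, 100% of the values above 0 came to whole reads (tolerance 0.05 reads) after division by the value of 1 read, and these reads were used where counts were needed. Coordinates and exon lengths came from GENCODE release 39, which holds 98.9% of the identifiers, and promoter windows came from RefSeq. For each pair of groups, limma 3.58.1 (R 4.3.3) was fitted to the 6 samples concerned, with log2(normalized count + 1) as the response, an intensity trend in the prior variance, and genes that reached 10 normalized counts in 3 or more samples. Fold changes on this scale understate those of low genes. The interaction used 12 samples. The alternatives were edgeR 4.0.16 and DESeq2 1.42.0 on the recovered reads, other scalings, pseudocounts of 0.1 and 5, no filter, an adjusted p of 0.05, all samples in 1 model, a replicate block and each sample left out. For single genes, these alternatives were read for the members only. The procedures were tested on simulated data. Intervals of reads (the floor of 3) cover counting error only. The named genes are all 10 members, up to 4 per list and comparison with the largest change among those called, and the 2 genes most like each member, of which 1 is not reported here. The description of tumor 312 and flask C names others, picked like the fat cell genes with their values in view. The members and lists were chosen with earlier results of these data known. Figures were drawn with matplotlib 3.10.9.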

Additional observations from a re-analysis of the deposited data

Results flagged for a closer look

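The fall of Gclc from cells to tumors differed between the lines, by limma's test of the interaction term, with a difference of 1.34 on the log2 scale (adjusted p = 0.00547). Gclc fell by 2.55 in 46LCNEC and by 1.2 in 57SCLC, and each of the 6 tumors was below each of the 6 cultures. The part of host cells of the tumors in these falls was not tested. All alternatives kept the sign, and the call was lost when any of 6 samples was left out, as given with the result.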

How the results depend on the processing

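Of the 33 calls of members, none changed sign in 505 recomputed values, and 38 of these values fell short of a call. The number of members called was within 1.5 times of the main number in 122 of 142 recomputed counts. For 46LCNEC_allo against Lung it was 5 in place of 3 with DESeq2, with an adjusted p of 0.05 and with all 15 samples in 1 model, and for the interaction 2 in place of 1 with DESeq2 and with an adjusted p of 0.05. With library size scaling, 57SCLC_allo against 46LCNEC_allo gave 1 in place of 2, and with all 15 samples in 1 model 46LCNEC_cell against Lung gave 4 in place of 7, where Nqo1, Hmox1 and Srxn1 were lost. That model also ended the calls of Nqo1 in the other comparisons, 57SCLC_allo against Lung (adjusted p = 0.0223), 57SCLC_cell against Lung (0.173) and 57SCLC_cell against 46LCNEC_cell (0.251), and of Srxn1 in 57SCLC_allo against Lung (0.0239). The cause was not tested.

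Leaving out 1 sample at a time gave 3 to 4 members for 46LCNEC_allo against Lung, 6 to 7 for 57SCLC_allo against Lung, 2 to 4 for 57SCLC_cell against 46LCNEC_cell, 2 to 3 for 57SCLC_allo against 46LCNEC_allo and for 46LCNEC_allo against 46LCNEC_cell, 1 to 5 for 57SCLC_allo against 57SCLC_cell, 6 to 7 for 46LCNEC_cell against Lung, 4 to 5 for 57SCLC_cell against Lung and 0 to 2 for the interaction. These fits have fewer samples, and no other cause was tested.

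Values that turned sign were those of members that were not called. For Nqo1 in 46LCNEC_allo against Lung, edgeR and DESeq2 gave 1.55 and the fits without 1 sample gave -2.88 (tumor 312) to 0.20 (tumor 319). For Keap1 in 57SCLC_allo against Lung, edgeR gave 0.02, library size scaling 0.16, TMM scaling 0.03 and the fits without 1 sample -0.11 to 0.07 (CT3). In 46LCNEC_cell against Lung, Keap1 was -0.06 without dish A, -0.03 without CT4 and -0.04 without CT5, with up to 0.14 without CT3. In 57SCLC_allo against 46LCNEC_allo, library size scaling gave 0.06 for Hmox1 and 0.17 for Txnrd1, leaving out 1 sample gave -0.59 to 0.16 (without tumor 319) for Hmox1 and -0.38 to 0.36 (without tumor 312) for Txnrd1. In 46LCNEC_allo against 46LCNEC_cell, Hmox1 was -0.04 without dish A and ranged from -0.27 (without tumor 319) to 0.47. Srxn1 in 57SCLC_cell against Lung ran from -0.92 to 0.01 (without flask C), and Gclm in the interaction from -0.04 (without tumor 321) to 0.39.

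Deviations of dishes and flasks with the same letter (A, B and C) correlated at 0.09, -0.08 and -0.01, against -0.10 to 0.12 for unlike letters. With 3 samples a line and flask C apart from the other flasks, this cannot decide whether the letters pair the samples. With the letters as a replicate block, 5 members were called in place of 4 between the cultures, with Srxn1 added (-1.63, adjusted p = 0.0035). Depth was lowest in tumor 275, with 9480244 reads.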
